A study of Mus musculus with 4 samples.

Results

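The genes of VEGF and angiopoietin signaling were followed in tumors of mice grafted with KPC pancreatic cancer cells: the VEGF ligands Vegfa, Vegfb, Vegfc and Pgf, their receptors Kdr, Flt1 and Nrp1, the angiopoietins Angpt1 and Angpt2, and the angiopoietin receptor Tek. These 10 genes were taken by symbol from the 32285 genes that the deposited matrices of all 4 libraries list, and each symbol matched 1 feature. KPC FC1242 cells, isolated from a mouse model of pancreatic ductal adenocarcinoma (PDAC), had been implanted in the pancreas of male mice made obese by a high-fat diet of 24 weeks. The tumors of a condition were dissociated and pooled, and single cells were sequenced from droplets as 1 library per condition. The Pdgfrb-TK/GCV library came from hosts in which the Pdgfrb promoter drives a thymidine kinase, so that ganciclovir (GCV, given on alternate days over 25 days at 50 mg/kg) is toxic to cells expressing Pdgfrb, as pericytes do. The Pdgfrb-TK/PBS library came from the same strain given PBS. The D-CAN library came from wild-type C57BL/6J hosts given D-CAN (30 mg/kg on the same schedule), a peptide that homes to adipose stromal cells and induces their death, and the WT/PBS library from wild-type hosts given PBS. All 4 conditions share the grafted cell line and the diet; the labels give an age of 7 months and the methods of the study 12 months, and the protocol text of the labels describes nuclei of another tissue.

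VEGF ligands are secreted dimers that bind receptor tyrosine kinases on endothelial cells (ECs). Vegfa acts through Kdr, the main signaling receptor, and also binds Flt1, which holds ligand with high affinity and signals weakly; Pgf and Vegfb bind Flt1, Vegfc binds Flt4 on lymphatic ECs and also Kdr, and Nrp1 is a coreceptor. Angpt1, made by perivascular and stromal cells, activates Tek (Tie2) and stabilizes vessels, while Angpt2, stored and released by ECs, is mostly an antagonist of Angpt1 that accompanies vessel remodeling. PDAC is known as a tumor poor in vessels and rich in stroma, and hypoxia is a classical inducer of Vegfa.

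The libraries hold 10495 to 12280 cells and 84020317 to 155408336 unique molecular identifiers (UMIs), and cells with at least 200 genes were kept. Pairs of libraries shared 26 to 42 cell barcodes, at most 0.389% of the smaller library. The files carry no cell annotation, so a cell was assigned to a class when at least 3 of its markers were detected at 10 or more UMIs per 10000, with no other class near it; none of the 10 genes was a marker. Cells past the gate of more than 1 class with a lead under 4-fold (2.83% to 4.79% of a library) were set aside. A cell past the pericyte and CAF gates alone was kept, in the class with the higher relative marker level. Cells past no gate, 13.2% (WT/PBS) to 24.6% (D-CAN) of a library, were left out. Their median share of mitochondrial UMIs was 56.0% in D-CAN and 12.4% in WT/PBS. It was 2.14% in Pdgfrb-TK/GCV and 3.82% in Pdgfrb-TK/PBS. Lists of 4 values are in the order Pdgfrb-TK/GCV, Pdgfrb-TK/PBS, then D-CAN and WT/PBS. The gate held 7271, 7347, 3808 and 6074 KPC tumor cells, 46, 120, 91 and 349 ECs, and 232, 406, 1161 and 1770 cancer-associated fibroblasts (CAFs). Pericytes numbered 2, 28, 34 and 103, and the 2 in Pdgfrb-TK/GCV were too few to use. A second list of 8 EC genes that the gate did not use, among them Vwf, Sox17 and Erg, summed to between 1239 and 1850 counts per 1000000 UMIs of the sum (CPM) in the ECs and at most 55.8 CPM in the class that came next. UMIs were summed per library and class and scaled to CPM of that sum, with intervals at 95% that cover counting error only. The matrices hold 1 feature per symbol, so soluble and membrane Flt1 and the isoforms of Vegfa could not be told apart. The assay counts the ends of transcripts, and levels were compared between cells and not between genes.

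In GENCODE M21 coordinates of GRCm38 (mm10), the ligands lie at chr17:46016993-46032369 (Vegfa, minus strand), chr19:6982473-6987651 (Vegfb, minus), chr8:54077606-54187096 (Vegfc, plus) and chr12:85166635-85177790 (Pgf, minus). The receptors lie at chr5:75932827-75978458 (Kdr, minus), chr5:147561604-147726011 (Flt1, minus) and chr8:128358604-128503363 (Nrp1, plus). Angpt1 lies at chr15:42424723-42676977 (minus), Angpt2 at chr8:18690263-18741562 (minus) and Tek at chr4:94739289-94874976 (plus). Angpt2 overlaps Mcph1 on the opposite strand, Angpt1 overlaps the antisense gene Gm17473 on the opposite strand, and Nrp1 holds Mir1903 on its own strand; each of the 10 is protein coding.

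The 250 bases before the RefSeq start (GRCm38.p6) are shown for a pair of tumor cell ligands that differed in their relation to hypoxia genes, and for a pair of receptors that ECs held. Letters searched on both strands were ACGTG and GCGTG, the core of the hypoxia response element, and CGGAAG and AGGAAG, bound by the ETS factors of ECs; ACGTG overlaps its own reverse complement in CACGTG, and the ETS motifs differ in 1 base. At least 1 of the hypoxia motifs is in 38.6% of all 32851 mouse windows of this length, and at least 1 of the ETS motifs in 39.2%, so a match is common. Capitals mark matches to the hypoxia motifs in the Vegfa window (chr17:46032378-46032627, minus strand), which has 0, and in the Vegfb window (chr19:6987652-6987901, minus strand), which has 2, starting 237 and 81 bases before the start.

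Vegfa: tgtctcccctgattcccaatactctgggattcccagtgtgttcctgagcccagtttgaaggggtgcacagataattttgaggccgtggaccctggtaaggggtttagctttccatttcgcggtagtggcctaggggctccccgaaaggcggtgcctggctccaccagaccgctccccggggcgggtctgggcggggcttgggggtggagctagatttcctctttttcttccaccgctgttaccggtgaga

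Vegfb: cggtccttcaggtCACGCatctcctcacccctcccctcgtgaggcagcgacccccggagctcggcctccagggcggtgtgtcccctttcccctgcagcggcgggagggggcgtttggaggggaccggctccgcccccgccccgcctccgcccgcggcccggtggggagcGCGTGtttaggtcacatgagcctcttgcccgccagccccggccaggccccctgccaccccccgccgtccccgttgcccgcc

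Capitals mark matches to the ETS motifs in the Flt1 window (chr5:147726012-147726261, minus strand), which has 2, starting 129 and 53 bases before the start, and in the Tek window (chr4:94739039-94739288, plus strand), which has 0.

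Flt1: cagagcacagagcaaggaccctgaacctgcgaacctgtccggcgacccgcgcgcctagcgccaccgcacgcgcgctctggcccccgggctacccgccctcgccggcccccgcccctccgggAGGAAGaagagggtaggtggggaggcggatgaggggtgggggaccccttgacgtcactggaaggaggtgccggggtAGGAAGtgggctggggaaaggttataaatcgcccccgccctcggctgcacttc

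Tek: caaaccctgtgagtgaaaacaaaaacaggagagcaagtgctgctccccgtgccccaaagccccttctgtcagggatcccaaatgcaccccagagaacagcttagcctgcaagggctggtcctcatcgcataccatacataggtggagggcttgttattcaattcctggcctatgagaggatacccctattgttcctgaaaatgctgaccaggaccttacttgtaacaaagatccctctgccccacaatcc

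These windows are descriptions of the sequence, and no binding was measured. Bases outside the windows were not searched, so 0 matches in a window does not mean that a gene lacks the motif. Among the other members with an entry, the Kdr window holds 2 hypoxia matches, and Pgf and Nrp1 hold 1 each, while Vegfc holds 0; of these 4, Nrp1 alone has an ETS match. In GENCODE M21, all 250 bases of the Pgf window lie in exons. The Nrp1 window (chr8:128358823-128359072) lies within the M21 gene but outside exons.

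Levels were compared over 8 classes: tumor cells, ECs, CAFs, pericytes, macrophages, neutrophils, T cells and B cells. Dendritic, acinar and mesothelial cells were gated too (58, 117 and 8 in D-CAN) but were not compared. Some gated Kdr UMIs of D-CAN lay in those cells, and their levels are not given here. Statements on other classes refer to the 8. Per UMI of a class, Kdr, Tek and Flt1 were highest in ECs, and Nrp1 in ECs and pericytes. Kdr, the main VEGF receptor, was at 558, 695, 421 and 379 CPM in ECs (513 ± 143, SD, n = 4 libraries), and at 0.143 to 0.769 CPM in KPC tumor cells. The lowest EC library lay above the highest value of any other of the 8 classes, which was 12.3 CPM in pericytes of WT/PBS. Tek was at 110, 219, 153 and 186 CPM in ECs (167 ± 46.3), against at most 5.41 CPM, in the CAFs of WT/PBS. The groups did not overlap for either gene, and no UMI of Kdr was found in T or B cells and none of Tek in T cells. Flt1 stood at 1467, 2540, 998 and 1438 CPM in ECs (1610 ± 656), with pericytes next at 609, 276 and 324 CPM in the 3 libraries that had them. Nrp1 had the widest spread over classes: ECs were at 475, 570, 297 and 253 CPM (399 ± 149) and pericytes at 375, 328 and 275 CPM, and these ranges overlapped.

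**Figure D1:**
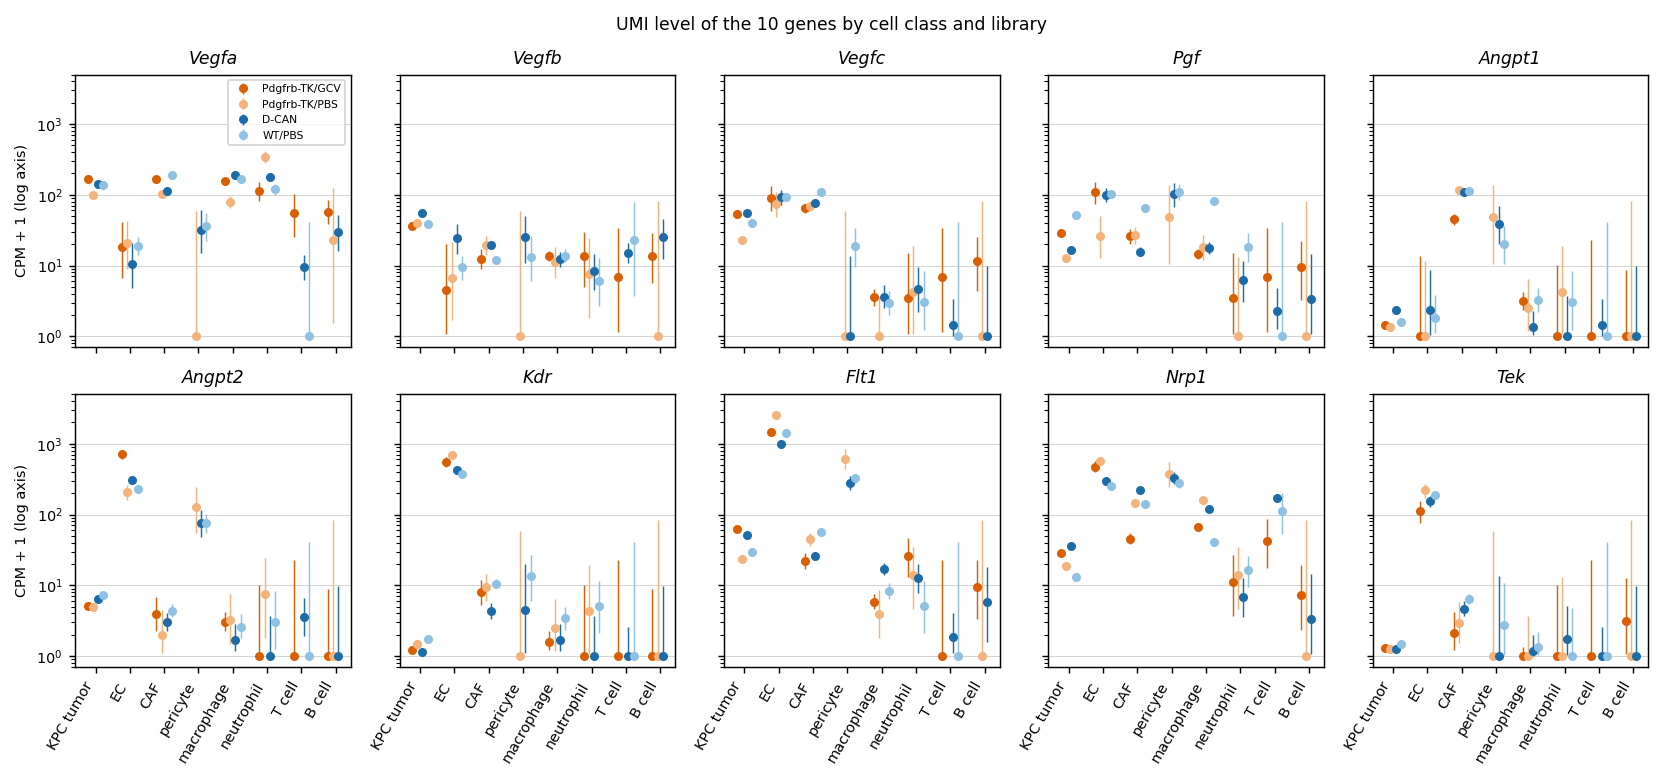
CPM + 1 (log axis) of the 10 genes in 8 cell classes; each point is 1 library and each bar the 95% Poisson interval, which covers counting error only. Kdr and Tek stand high in ECs alone, Angpt1 in CAFs and pericytes, and Vegfa at similar levels in tumor cells, CAFs, macrophages and neutrophils.

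Classes were compared with edgeR's quasi-likelihood test over 29 sums of a library and class, with the library as a block and Benjamini-Hochberg adjustment over 12961 genes; the libraries are the replicates here, and they differ in treatment and host. In ECs against the mean of the other classes, 7 of the 10 genes were higher, where 19.7% of all genes tested were, and 1 was lower, where 11.8% were. The median log2 fold change was 3.20 over the 10 genes and -0.02 over all genes. Because genes at 0 UMIs in lymphocytes give a fitted fold that depends on the prior count, sizes are given from a fit without B and T cells, chosen after the data were seen. There Tek was higher in ECs by 8.06 ± 0.25 (log2 fold change ± SE, edgeR adjusted p = 3.0e-16), Kdr by 7.85 ± 0.24 (adjusted p = 3.0e-16), Angpt2 by 5.92 ± 0.25 (adjusted p = 4.2e-14) and Flt1 by 5.28 ± 0.29 (adjusted p = 2.9e-12). Each SE of a fold change is approximate: the absolute log2 fold change divided by the square root of the quasi-likelihood F statistic. Vegfc (2.74 ± 0.26), Nrp1 (2.45 ± 0.28) and Pgf (1.53 ± 0.31) were the other genes higher in ECs, each also called in the fit with all classes. Vegfa was lower in ECs by 3.01 ± 0.42 (adjusted p = 6.2e-06), at 17.2, 19.9, 9.67 and 18.0 CPM.

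Of 19 further genes of the same pathways, 14 were higher in ECs, where 19.7% of all genes tested were, and 1 was lower, where 11.8% were. This list was chosen with earlier results of these data known, so its count is a description. Higher ones included Tie1, the partner of Tek (260 to 324 CPM in ECs), Ptprb, a phosphatase that restrains Tek (623 to 1504 CPM), Flt4, the receptor for Vegfc (141 to 417 CPM), Dll4, the Notch ligand of tip cells (103 to 142 CPM), and Esm1, a gene of tip cells induced by VEGF (120 to 1284 CPM). Sema3c, a semaphorin that binds neuropilins, was the gene that was lower in ECs (adjusted p = 0.029, edgeR), at 5.2 to 14.2 CPM there and 84.0 to 110.9 CPM in tumor cells. This call was lost in 6 alternatives, where 0 pathway genes were lower in ECs: library totals in place of TMM, no library block, 4 markers required, and Pdgfrb-TK/GCV, Pdgfrb-TK/PBS or WT/PBS left out.

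Outside ECs, Flt1 and Angpt2 were found in pericytes and at low level in tumor cells. In pericytes, Flt1 was at 22.5% to 27.7% of its EC level within the same library and Angpt2 at 24.99% to 61.2%. The EC gate markers in pericytes summed to 6.66% to 9.06% of theirs. Flt1 and Angpt2 lay above that marker share in 3 of 3 libraries, and Kdr and Tek below it in 3 of 3. The gate kept cells with many EC markers out of the pericytes, so the marker share can understate the EC RNA carried. Whether carried RNA accounts for these levels was not tested. The Angpt2 level in pericytes of Pdgfrb-TK/PBS came from 8 UMIs. Pericytes had 5 of the 10 genes higher than the mean of the other classes, against 14.8% of all genes, and 0 lower, against 6.06% (median log2 fold change 2.44 over the 10 genes and -0.04 over all genes). The 5 were Angpt2 (3.55 ± 0.41, adjusted p = 7.0e-07), Angpt1 (3.12 ± 0.60), Flt1 (2.63 ± 0.38), Nrp1 (1.94 ± 0.35) and Pgf (1.40 ± 0.40), all as log2 fold change ± SE without B and T cells. In that fit the median was 0.83 over the 10 genes and -0.19 over all genes, and 1 of the 10 was lower. Vegfc UMIs were found in the pericytes of WT/PBS alone, at 17.6 CPM, from 10 UMIs. That was 16.3% of the CAF level of Vegfc in WT/PBS, near the 14.6% of the CAF gate markers.

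In KPC tumor cells, Flt1 was at 60.6, 22.2, 50.8 and 28.5 CPM, which is 0.875% to 5.09% of its EC level, and the EC gate markers there summed to 0.322% to 0.574%; the Flt1 share was the larger in 4 of 4 libraries. After each cell was thinned to 2000 UMIs, 10.5% (9.73 to 11.3), 4.69% (4.18 to 5.23), 8.29% (7.40 to 9.25) and 5.06% (4.49 to 5.68) of tumor cells had a Flt1 UMI, against 78.4%, 83.6%, 54.4% and 72.9% of ECs (exact Clopper-Pearson intervals). Kdr served as the comparison: by the same count 54.1%, 72.6%, 46.8% and 47.1% of ECs held a Kdr UMI and 0.0319% to 0.185% of tumor cells. Thinning left out 287 to 992 tumor cells and 9 to 47 ECs per library as shallower; unthinned, the Flt1 shares of tumor cells were 31.5%, 14.1%, 35.0% and 20.1%, at median depths of 8006 to 19874.5 UMIs. Angpt2 was also above the EC marker share in tumor cells of 4 of 4 libraries, at 3.86 to 6.21 CPM, and Kdr and Tek were below it in 4 of 4.

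Nrp1 was the receptor gene shared by CAFs, macrophages and T cells. CAFs held it at 44.5, 145, 219 and 142 CPM and macrophages at 64.6, 157, 117 and 39.4 CPM, ranges that overlapped. T cells held it at 41.8 CPM (Pdgfrb-TK/GCV, from 7 UMIs), 169 CPM (D-CAN) and 110 CPM (WT/PBS, from 10 UMIs). Neutrophils were at most at 15.2 CPM and B cells at most at 6.31 CPM. Tumor cells, at 27.8, 17.4, 34.9 and 12.3 CPM, lay below the macrophages of the same library in 4 of 4, and Nrp1 was the 1 gene of the 10 called lower in tumor cells with all classes in the fit (adjusted p = 6.8e-04, edgeR).

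Ligands came from a wider set of cells. Vegfa was at 164, 99.4, 140 and 136 CPM in tumor cells (135 ± 26.6, SD, n = 4), at 163, 101, 111 and 188 CPM in CAFs, at 155, 78.6, 192 and 165 CPM in macrophages and at 112, 343, 177 and 119 CPM in neutrophils. The ranges of these classes overlapped, and no order among them held in every library. The tumor cell gate markers summed in CAFs, macrophages and neutrophils to at most 19.5% of their tumor cell level. Vegfa in those classes was at 68.4% or more of its own. The gate kept cells with many tumor cell markers out of these classes, so the marker share can understate the tumor cell RNA carried. Against the mean of the other classes, Vegfa was higher in macrophages (1.25 ± 0.27, adjusted p = 7.3e-04), CAFs (1.04 ± 0.28, adjusted p = 0.0042) and tumor cells (0.90 ± 0.28, adjusted p = 0.0086), as log2 fold change ± SE without B and T cells. Neutrophils entered that mean and had no contrast of their own. Pericytes (0, 31.1 and 35.2 CPM) and ECs were at the low end, with T and B cells at 0 to 56.8 CPM.

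Vegfb, the ligand of Flt1 tied to fatty acid uptake by vessels, was highest in tumor cells, at 35.6, 39.5, 55.1 and 37.7 CPM (42.0 ± 8.89), and was lower in CAFs in 4 of 4 libraries, at 11.05 to 18.6 CPM. Its log2 fold change against the other classes was 1.85 ± 0.20 (edgeR without B and T cells, adjusted p = 1.1e-07). Vegfc, the lymphatic growth factor, was at 89.5, 73.8, 91.2 and 91.0 CPM in ECs (86.4 ± 8.43), at 63.4, 68.2, 76.6 and 108 CPM in CAFs and at 53.3, 22.0, 54.1 and 38.9 CPM in tumor cells. The EC and CAF ranges overlapped, and CAFs lay above tumor cells in 4 of 4 libraries. Levels were 0 to 2.63 CPM in macrophages and 2.03 to 3.68 CPM in neutrophils. T cells were at most at 5.98 CPM, from 1 UMI, and B cells at 10.5 CPM in Pdgfrb-TK/GCV, from 5 UMIs, and at 0 in the other libraries that had them.

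Pgf, a ligand of Flt1, was at 107, 25.5, 99.5 and 103 CPM in ECs, and at 46.9, 100 and 109 CPM in pericytes. In tumor cells, CAFs and macrophages WT/PBS was the highest library, at 51.4, 63.9 and 81.0 CPM, and the other 3 libraries lay between 11.7 and 27.5 CPM. The 2 PBS libraries, which differ in host strain, differed in Pgf by a ratio of 0.23 (0.21 to 0.24) in tumor cells and 0.21 (0.13 to 0.32) in macrophages, Pdgfrb-TK/PBS over WT/PBS.

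By mean level, Angpt1 was highest in CAFs and Angpt2 in ECs, and pericytes came next for both. Angpt1 was at 44.1, 115, 107 and 112 CPM in CAFs (94.6 ± 33.8) and at 46.9, 38.0 and 19.4 CPM in pericytes, and no other class was above 3.26 CPM. The pericyte value of Pdgfrb-TK/PBS came from 3 UMIs. Angpt1 in pericytes was at 17.3% to 40.8% of its CAF level, where the CAF gate markers summed to 14.6% to 18.4% of theirs. In WT/PBS these shares were 17.3% and 14.6%. The log2 fold change of Angpt1 in CAFs was 5.74 ± 0.30 (edgeR without B and T cells, adjusted p = 5.4e-13). Angpt2 was at 706, 204, 304 and 225 CPM in ECs (360 ± 235) and at 125, 76.0 and 74.0 CPM in pericytes. ECs lay above the pericytes of the same library in 3 of 3, and the EC level of Pdgfrb-TK/GCV stood apart from the other 3.

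CAFs had 7 of the 10 genes higher than the mean of the other classes, where 29.3% of all genes were, macrophages 3 (24.2%) and tumor cells 3 (36.3%). Genes called lower numbered 0 in CAFs (14.4% of all genes), 2 in macrophages (14.2%) and 1 in tumor cells (16.0%). With all classes in the fit, the median log2 fold change of the 10 genes was 1.46 in CAFs, 0.06 in macrophages and 0.58 in tumor cells. That of all genes was 0.12, 0.03 and 0.24. The medians depend on the fit. Without B and T cells, those of the 10 genes were 0.72, -1.65 and -0.99, and those of all genes 0.09, 0.06 and 0.16. With DESeq2, those of the 10 genes were 1.37, -0.93 and 0.04. Without B and T cells, 2 of the 10 genes were lower in CAFs, 5 in macrophages and 5 in tumor cells. In that fit, 5 genes were higher in CAFs (Angpt1, Vegfc, Tek, Vegfa and Nrp1), 3 in tumor cells and 1 in macrophages (Vegfa). The calls of Nrp1 and Pgf in macrophages were thus lost, and they had adjusted p-values of 0.049 and 0.046 with all classes in edgeR. Tek in CAFs, at 1.11, 1.91, 3.70 and 5.41 CPM, was within the share of EC gate markers carried by CAFs in 3 of 4 libraries. Of the 19 other pathway genes, CAFs had 10 higher and 0 lower, tumor cells 5 and 3, macrophages 3 and 3, and pericytes 3 and 0. In pericytes 14.8% of all genes were higher and 6.06% lower. The lower calls depend on the fit: they numbered 10 in tumor cells and 12 in macrophages with DESeq2, and 7 and 9, and 5 in CAFs, in edgeR without B and T cells.

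Since classes differ in cell number and RNA content, the UMIs of each gene were also counted by where they were found. Tumor cells held 89.0%, 94.6%, 83.8% and 77.6% of the gated Vegfa UMIs. CAFs came next in WT/PBS (16.4%) and D-CAN (7.55%), and macrophages in Pdgfrb-TK/GCV (8.20%). The Vegfb UMIs were found in tumor cells at 93.4% to 98.1%, those of Vegfc at 67.6% to 96.0% and those of Pgf at 75.2% to 92.3%. CAFs held 28.7% of Vegfc in WT/PBS and 2.92% in Pdgfrb-TK/GCV. Angpt1 UMIs were found in CAFs at 63.6%, 88.0%, 89.2% and 95.3%. For Angpt2, ECs held 30.6%, 18.9%, 27.4% and 40.1%, and the many tumor cells, at a low level each, held 51.7% to 77.1%. Of the receptors, ECs held 76.8% to 81.3% of Kdr UMIs and 46.4% to 75.5% of Tek UMIs, and tumor cells held 47.8% of Tek in Pdgfrb-TK/GCV, from 33 UMIs. Most Flt1 UMIs were in tumor cells except in WT/PBS: tumor cells held 92.0%, 62.0%, 80.5% and 40.9%, and ECs 6.13%, 32.9%, 11.7% and 44.1%. ECs held 2.96% to 12.6% of Nrp1, tumor cells 28.6% to 75.8% and the CAFs of WT/PBS 50.4%. These shares describe the cells captured, and how far capture follows the tumor was not tested.

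**Figure D2:**
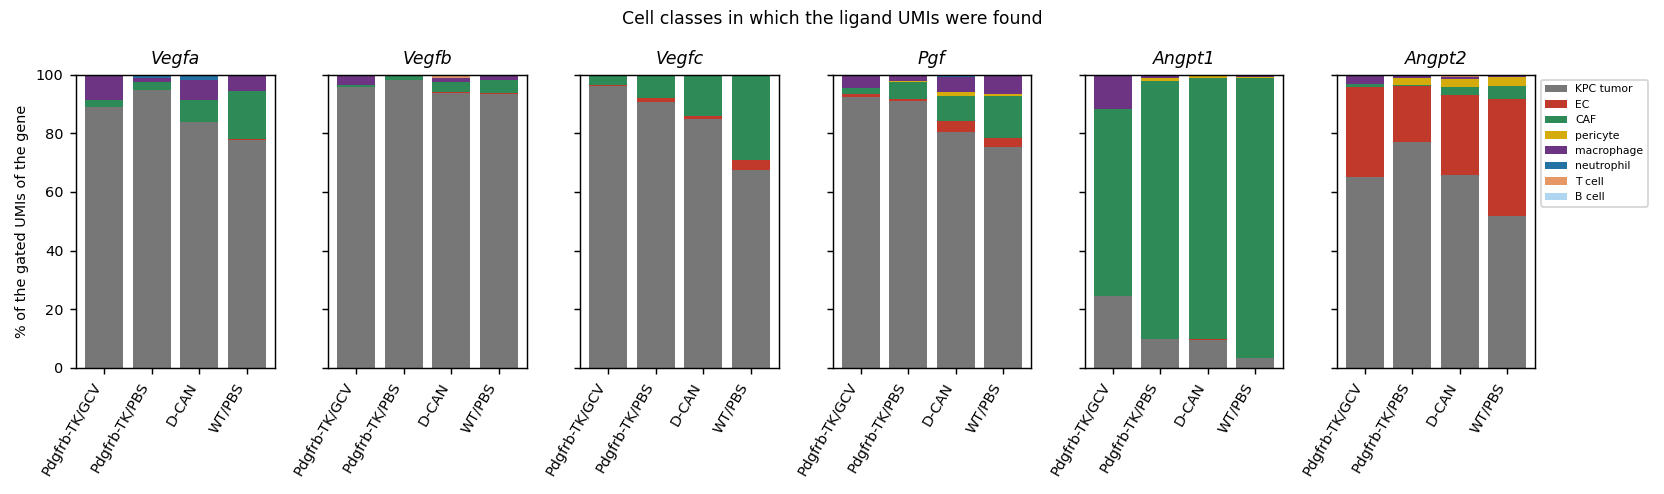
Percent of the gated UMIs of each ligand (vertical axis) by cell class (colors) in each library (horizontal axis). Tumor cells hold most UMIs of the 4 VEGF ligands, CAFs most of Angpt1, and ECs 18.9% to 40.1% of Angpt2.

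ECs were divided by vessel markers that exclude the 10 genes: lymphatic (Prox1, Lyve1, Ccl21a, Mmrn1, Reln), artery, vein and capillary. In WT/PBS, the library with most ECs, 49 lymphatic-marker ECs had no Nrp1 UMI and 4 Flt1 UMIs (10.4 CPM), while Flt1 was at 2690 CPM in 22 artery-marker, 1794 CPM in 145 capillary-marker and 1017 CPM in 50 vein-marker ECs. The 0 Nrp1 UMIs in those cells allow up to 9.58 CPM, the upper end of the exact Poisson interval. In D-CAN, 24 lymphatic-marker ECs had 0 UMIs of either gene. Kdr was present in the lymphatic-marker ECs, at 210 CPM (WT/PBS) and 326 CPM (D-CAN), and Tek at 148 and 167 CPM, close to the Tek level of capillary-marker ECs (177 and 144 CPM). Angpt2 was high in them, at 587 CPM in the WT/PBS library and 522 CPM in the D-CAN library, against 152 and 179 CPM in capillary-marker ECs. Vegfc showed the opposite order: artery-marker ECs were at 870 CPM in WT/PBS, and lymphatic-marker ECs, the cells it acts on, at 2.597 CPM, or 1 UMI. Cells of 1 library are not replicates, so these are descriptions of the cells; lymphatic-marker ECs made up 1 of 46, 4 of 120, 24 of 91 and 49 of 349 ECs.

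**Figure D3:**
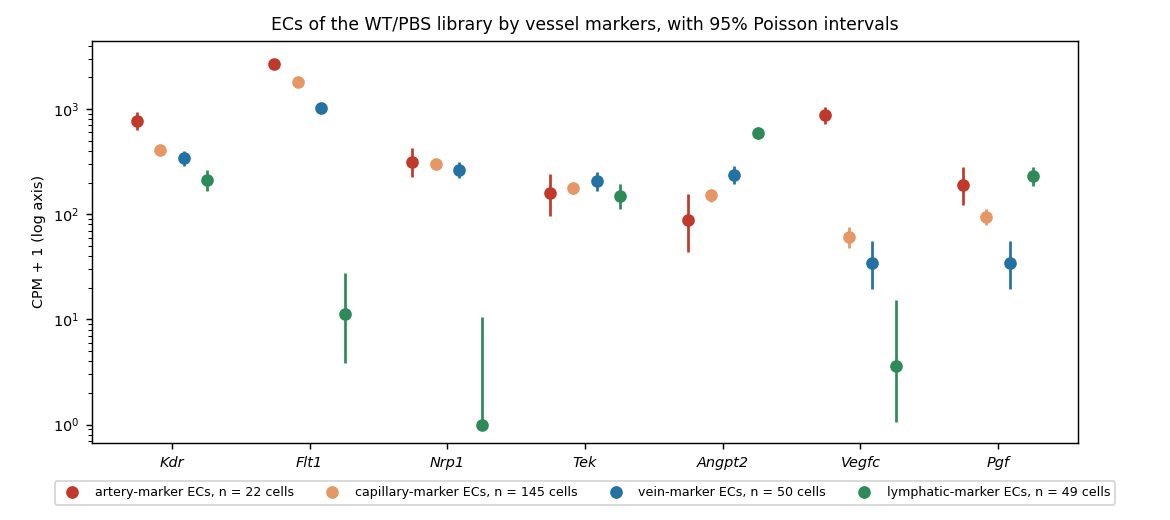
CPM + 1 (log axis) of 7 genes in ECs of WT/PBS by vessel markers (colors, with cell numbers); bars are 95% Poisson intervals. Lymphatic-marker ECs hold 4 UMIs of Flt1 and 0 of Nrp1, hold Kdr and Tek, and have the highest Angpt2 at 587 CPM; Vegfc is highest in artery-marker ECs at 870 CPM.

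Receptors also met in single ECs. A UMI of both Kdr and Flt1 was found in 69.6%, 61.7%, 53.8% and 62.8% of ECs, and of both Kdr and Tek in 26.1%, 28.3%, 45.1% and 45.0%. A gene can be missed in a cell at low depth, and median depths were 4969, 2415, 7228 and 5002 UMIs per EC.

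Among CAFs, cells with markers of inflammatory CAFs (iCAFs, such as Clec3b and Pi16) had less Vegfa and less Angpt1 than cells with markers of myofibroblastic CAFs (myCAFs, such as Acta2 and Thbs2) in 4 of 4 libraries. The CPM ratio of iCAF-marker over myCAF-marker cells was 0.25, 0.62, 0.57 and 0.53 for Vegfa. For Angpt1, the levels were 42.1 and 47.3 CPM (iCAF-marker, then myCAF-marker cells) in Pdgfrb-TK/GCV, 41.1 and 143 CPM in Pdgfrb-TK/PBS, 81.3 and 134 CPM in D-CAN and 51.4 and 120 CPM in WT/PBS. Only the pair of Pdgfrb-TK/GCV had an interval of the ratio that held 1. Tek went the other way, at 25.7 against 3.62 CPM in WT/PBS and 7.30 against 0.396 CPM in D-CAN, in iCAF-marker cells over myCAF-marker cells.

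Macrophages with Arg1, Spp1 and Hmox1 as markers held more Vegfa than those with C1q markers in 4 of 4 libraries, at 252 against 83.9 CPM, 208 against 29.4 CPM, 349 against 141 CPM and 173 against 138 CPM; the interval of the last ratio (0.94 to 1.63) held 1. Nrp1 was lower in the Arg1-marker cells in 3 of 4, at 29.0 against 87.3 CPM in Pdgfrb-TK/GCV and 24.96 against 141 CPM in D-CAN. With 4 libraries, the smallest p that an exact two-sided sign-flip test could give is 0.13, so that test cannot pass 0.05 for these pairs, and none is given.

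Vegfa was next set against hypoxia genes within the tumor cells. A score of 10 hypoxia genes that hold none of the members (Slc2a1, Pgk1, Ldha, Bnip3, Ndrg1, Adm, Ankrd37, Egln3, Car9 and Hilpda) divided the tumor cells of each library into tertiles. From the lower to the upper tertile, Vegfa went from 76.8 to 295 CPM in Pdgfrb-TK/GCV, from 65.6 to 165 CPM in Pdgfrb-TK/PBS, from 75.5 to 213 CPM in D-CAN and from 86.9 to 189 CPM in WT/PBS. Pgf went from 10.6 to 58.1, from 2.52 to 26.0, from 3.89 to 29.5 and from 24.2 to 74.1 CPM. The mean log2 ratio of the upper over the lower tertile was 1.46 ± 0.35 for Vegfa and 2.38 ± 0.59 for Pgf (SD, n = 4 libraries, higher in 4 of 4, exact two-sided sign-flip p = 0.13, the smallest that this test can give with 4 libraries). Vegfb (0.35 ± 0.08) and Flt1 (0.41 ± 0.19) were above 0 in 4 of 4 by less, and Vegfc (0.31 ± 0.23) in 3 of 4.

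Nrp1 went the other way in 3 of 4 libraries, with a mean log2 ratio of -0.78 ± 0.58. Depth and RNA quality moved with the tertiles: cells of the lower tertile had fewer UMIs (in D-CAN a median of 7636 against 25863) and more mitochondrial UMIs (14.9% against 3.46% in D-CAN, 6.04% against 4.02% in Pdgfrb-TK/GCV). With cells thinned to 2000 UMIs before scoring, the Vegfa difference was 1.46. The mitochondrial part was not tested. A score is a range, and 15.5% to 17.4% of cells lay within 10% of a cut.

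**Figure D4:**
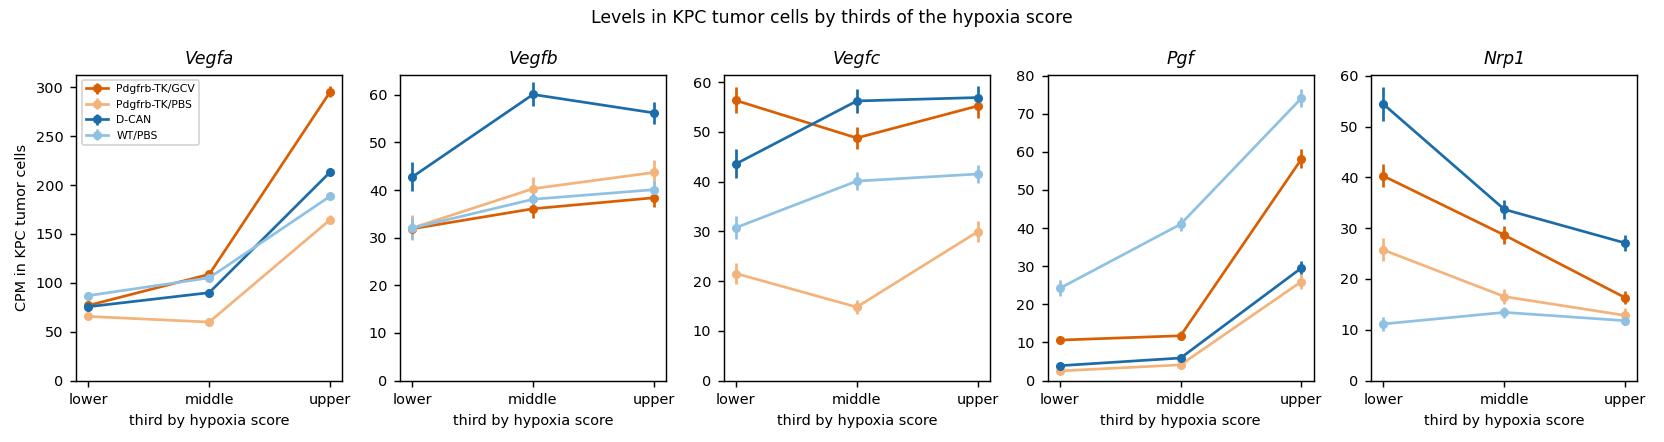
CPM of 5 genes (vertical axes, each from 0) in KPC tumor cells by tertile of the hypoxia score (horizontal axis), 1 line per library, with 95% Poisson intervals. Vegfa and Pgf are highest in the upper tertile of all 4 libraries, Vegfa at 165 to 295 CPM, and Nrp1 is lowest there in 3.

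The first treatment comparison asked what GCV changed in Pdgfrb-TK hosts. With 1 library on each side there is no replicate check and no test: a CPM ratio is given with its exact conditional binomial interval, and a gene counts as different at 2-fold or more with at least 20 UMIs in the 2 libraries together. As a gauge, the 2 PBS libraries, of different host strains, differed by that much in 23.3% to 28.6% of genes in the 6 classes compared. They also come from separate graft experiments of the study, and of the 2 only the WT/PBS matrix lists reporter features. Host strain, experiment and processing cannot be told apart in their ratios. ECs of Pdgfrb-TK/GCV had more Angpt2 than those of Pdgfrb-TK/PBS, at 706 against 204 CPM, a ratio of 3.45 (2.63 to 4.58), and the 2 PBS libraries differed by 0.91 (0.70 to 1.16). Tek was at 110 against 219 CPM, a ratio of 0.50 (0.32 to 0.77; PBS libraries 1.17). Flt1 was at 1467 against 2540 CPM (0.58, 0.51 to 0.65), a smaller step than the 1.77 between the PBS libraries.

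The Angpt2 ratio passed 2-fold under each alternative run, with WT/PBS as control included. It was 3.57 (2.67 to 4.82) without lymphatic-marker ECs and 4.07 (2.92 to 5.79) in capillary-marker ECs alone, where Tek was at 0.37 (0.19 to 0.67). It rests on 46 ECs: 24 of them (52.2%) held the 205 Angpt2 UMIs, the 3 highest held 34.1%, and in Pdgfrb-TK/PBS 19 of 120 ECs (15.8%) had one. ECs were 0.375% of the Pdgfrb-TK/GCV cells and 1.15% of the Pdgfrb-TK/PBS cells. Pgf, at 107 against 25.5 CPM, was the other of 7 members with enough UMIs that was higher in ECs; 27 of its 31 UMIs were in 3 cells, and the ratio of 4.18 was 1.04 with WT/PBS as control. No member was 2-fold or more lower, with Tek just inside that limit at 0.504. Of all genes in ECs, 5.56% were higher and 5.15% lower, and the median log2 ratio was -0.02, against -0.26 over the 7 members.

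Of the 19 further pathway genes, Esm1 and Apln were higher in these ECs and Aplnr lower. Esm1 was at 1284 against 261 CPM (ratio 4.92, 3.91 to 6.25) and Apln, a ligand made by tip cells, at 874 against 207 CPM (4.22, 3.24 to 5.55). Aplnr, the receptor for Apln, was lower, at 107 against 412 CPM (0.26, 0.17 to 0.38). These are 2 higher and 1 lower of 15 pathway genes with enough UMIs, where 5.56% of all genes were higher and 5.15% lower. Dll4 was within 2-fold, at 124 against 136 CPM (0.91, 0.57 to 1.43). Between the PBS libraries, Esm1 differed by 2.18, Apln by 25.9 and Aplnr by 3.09, so only the Esm1 and Aplnr ratios under GCV were further from 1 than that gauge. Pdgfrb-TK/PBS was the library with the highest EC level of Aplnr, and the median over libraries was 167 CPM. Without lymphatic-marker ECs, Aplnr was at 108 CPM in Pdgfrb-TK/GCV and 157 CPM in WT/PBS, so the size of its ratio depends on the control library.

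Tumor cells of Pdgfrb-TK/GCV held more Flt1 (60.6 against 22.2 CPM, ratio 2.73, 2.58 to 2.88), more Vegfc (53.3 against 22.0 CPM, 2.43, 2.30 to 2.56) and more Pgf (27.5 against 11.7 CPM, 2.35, 2.18 to 2.54). Vegfa was at 164 against 99.4 CPM, a ratio of 1.65 (1.61 to 1.69), and Vegfb differed little (0.90, 0.86 to 0.95). The PBS libraries differed by 0.78 in Flt1, 0.57 in Vegfc, 0.23 in Pgf and 0.73 in Vegfa. With WT/PBS as control the Flt1 ratio stayed above 2-fold, the Vegfc ratio was 1.37 and the Pgf ratio 0.54, so the direction of Pgf depends on the control library. These are 3 higher of 10 members, where 14.8% of all genes were higher. Kdr was the 1 lower (0.43), from 22 against 37 UMIs and below the share of EC marker RNA in tumor cells, where 3.48% of all genes were lower. The median log2 ratio was 0.37 over the 10 members and 0.11 over all genes. All 10 hypoxia genes had ratios above 1 in tumor cells under GCV, from 1.09 for Ldha to 2.66 for Adm, where 64.3% of all genes with at least 20 UMIs were above 1. With WT/PBS as control 8 of the 10 were above 1, and Adm and Hilpda were at 0.97. In 4 of the 10 the ratio under GCV was further from 1 than the ratio of the PBS libraries, which was 0.36 for Adm and 1.35 for Ldha. Under D-CAN, 7 of the 10 were above 1 (58.4% of all genes), with Bnip3 at 2.02 and Adm at 0.35.

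CAFs of Pdgfrb-TK/GCV had less Nrp1 (44.5 against 145 CPM, ratio 0.31, 0.25 to 0.38), less Angpt1 (44.1 against 115 CPM, 0.38, 0.31 to 0.48) and less Flt1 (21.1 against 43.9 CPM, 0.48, 0.34 to 0.68). The PBS libraries differed by 1.019, 1.03 and 0.80 in these genes. The CAF gate markers also summed to less in these cells, 13086 against 22205 CPM, as did 6 CAF genes that the gate did not use, 1297 against 1943 CPM; their part in these ratios was not tested. Thus 3 of 8 members with enough UMIs were lower in CAFs and 0 higher, where 7.76% of all genes were lower and 3.17% higher, with a median log2 ratio of -0.45 over the members and -0.15 over all genes. Angpt1 was at 47.3 against 143 CPM in the myCAF-marker cells, from 63 against 137 UMIs. In the iCAF-marker cells it was at 42.1 against 41.1 CPM, from 32 against 14 UMIs, so a difference there could be missed. This split was not tested. iCAF-marker cells were 58 of 232 CAFs in Pdgfrb-TK/GCV and 63 of 406 in Pdgfrb-TK/PBS. Vegfa in CAFs was at 163 against 101 CPM (1.62, 1.37 to 1.91); the PBS libraries differed by 0.54, and with WT/PBS as control the ratio was 0.87, in the other direction. Of the pathway genes in CAFs, 5 of 15 were lower, among them Svep1, a matrix ligand of Tie1 (0.38), and Nrp2 (0.29).

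Among leukocytes, macrophage Vegfa was at 155 against 78.6 CPM (1.98, 1.62 to 2.43) and macrophage Nrp1 at 64.6 against 157 CPM (0.41, 0.35 to 0.48), the 1 lower of 8 members where 4.38% of all genes were lower; 0 were higher, where 7.71% were. The PBS libraries differed by 0.48 and 3.99 in these genes, and with WT/PBS as control the ratios were 0.94 and 1.64, so the direction of both depends on the control library. Neutrophil Vegfa was lower, at 112 against 343 CPM (0.33, 0.23 to 0.47; PBS libraries 2.89), and WT/PBS neutrophils were at 119 CPM. It was the 1 member with enough UMIs there, where 7.46% of all genes were higher and 4.09% lower. In B cells the 1 such member was also Vegfa (27 against 1 UMIs, ratio 2.57, 0.42 to 105), where 17.1% of all genes were higher and 8.38% lower. In macrophage and neutrophil Vegfa, Pdgfrb-TK/PBS was the library furthest from the other 3.

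**Figure D5:**
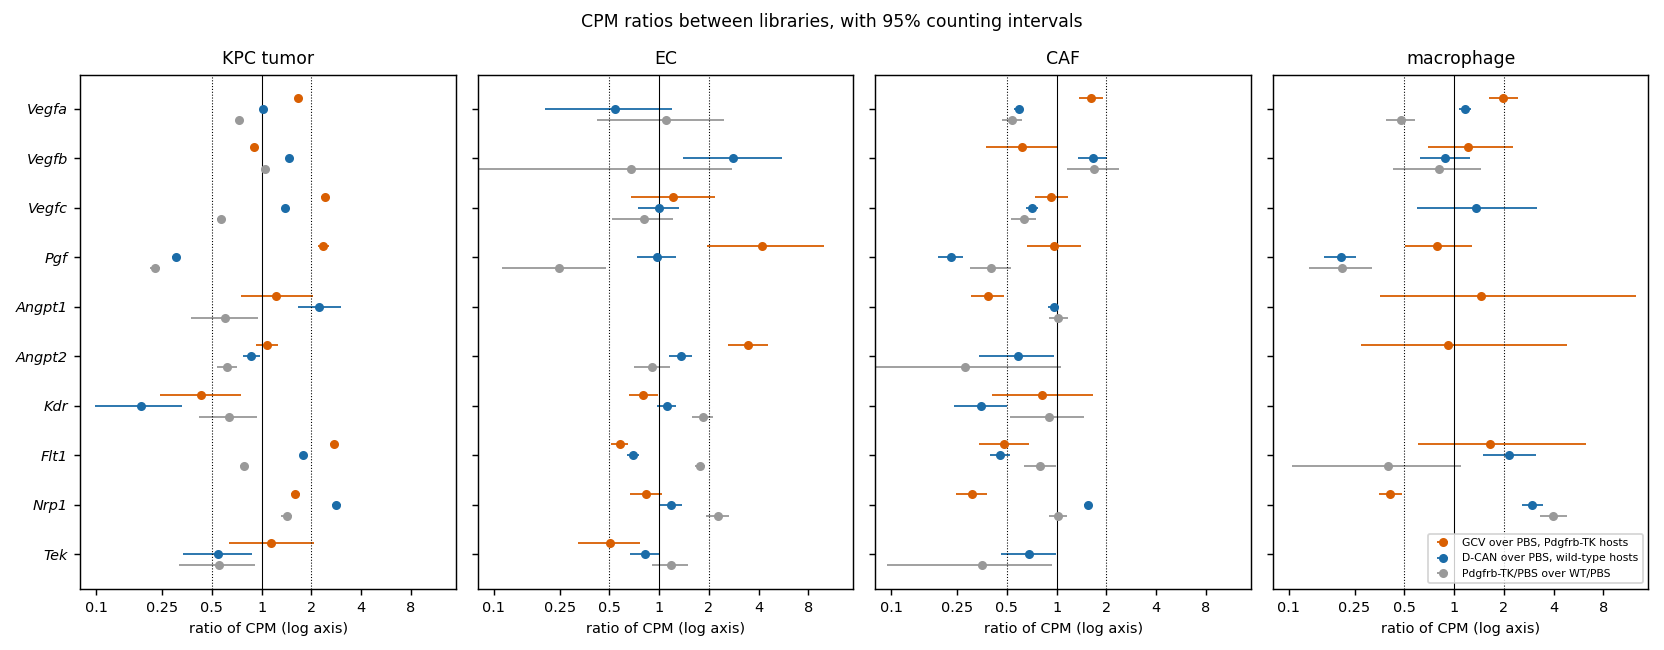
CPM ratios (log axis) of the 10 genes in 4 classes for GCV over PBS, D-CAN over PBS and, in grey, Pdgfrb-TK/PBS over WT/PBS; bars are 95% counting intervals, dotted lines mark 2-fold, and genes with fewer than 20 UMIs are not shown. Angpt2 in ECs (3.45) and Nrp1 (0.31) and Angpt1 (0.38) in CAFs differ under GCV where the grey points lie near 1.

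The second treatment comparison set D-CAN against PBS in wild-type hosts. In ECs the receptors stayed within 2-fold: Kdr was at 421 against 379 CPM (ratio 1.11, 0.98 to 1.27), Nrp1 at 297 against 253 CPM (1.18, 1.002 to 1.37), Tek at 153 against 186 CPM (0.82, 0.66 to 1.02) and Flt1 at 998 against 1438 CPM (0.69, 0.64 to 0.75). Without lymphatic-marker ECs, which were 26.4% of ECs in D-CAN and 14.0% in WT/PBS, Flt1 was at 0.88 (0.81 to 0.95) and Nrp1 at 1.49 (1.27 to 1.74). With Pdgfrb-TK/PBS as control, Kdr was at 0.61 and Nrp1 at 0.52, on the other side of 1. Angpt2 was at 304 against 225 CPM (1.35, 1.15 to 1.58). Vegfb, from 17 against 21 UMIs, was the 1 of 9 members that was higher (2.80, 1.39 to 5.58), where 15.7% of all genes were higher and 6.63% lower. Esm1 (2.51, 2.10 to 3.004), Apln (25.8, 16.1 to 43.4) and Flt4 (2.6, 2.23 to 3.03) were among 5 of 16 pathway genes that were higher; the PBS libraries differed by 2.18, 25.9 and 1.56 in them. Flt4 was at 1.15 (0.84 to 1.55) without lymphatic-marker ECs and no longer passed 2-fold, and Esm1 (3.18) and Apln (32.6) still did.

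Tumor cells of D-CAN held Vegfa at the level of their control, 140 against 136 CPM (1.03, 1.002 to 1.05). Nrp1 was higher, at 34.9 against 12.3 CPM (2.83, 2.66 to 3.02; PBS libraries 1.42), and Pgf lower, at 15.6 against 51.4 CPM (0.30, 0.29 to 0.32; PBS libraries 0.23). With Pdgfrb-TK/PBS as control, Pgf was at 1.33 and Nrp1 at 1.999. Angpt1 was higher (2.24, 1.66 to 3.04), at 1.32 against 0.590 CPM, and the ratio was 1.08 when cells with markers of more than 1 class were kept and 1.15 as a mean over cells. Kdr was lower (0.19), from 14 against 90 UMIs. In tumor cells of D-CAN and of WT/PBS, Kdr lay below the share of EC marker RNA (0.034% against 0.574%, and 0.203% against 0.434%). With Kdr counted, 2 of the 10 members were higher and 2 lower, where 15.6% and 9.77% of all genes were.

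CAFs of D-CAN held Angpt1 at 107 against 112 CPM (0.96, 0.89 to 1.03), unlike the CAFs under GCV; the difference between the treatments was not tested, and iCAF-marker cells were 43.0% of CAFs in D-CAN and 7.63% in WT/PBS. Nrp1 was at 219 against 142 CPM (1.55, 1.46 to 1.64) and Vegfa at 111 against 188 CPM (0.59, 0.55 to 0.63), which was 1.10 with Pdgfrb-TK/PBS as control. The 3 of 10 members that were lower were Pgf (14.6 against 63.9 CPM, 0.23, 0.19 to 0.27), Kdr (0.35) and Flt1 (0.46), where 11.6% of all genes were lower, and 0 were higher, where 16.4% were. In the CAFs of D-CAN, Kdr (0.79% of its EC level) and Flt1 (2.51%) were below the share of EC gate markers (3.62%), and in WT/PBS both were above it (2.52% and 3.82% against 2.23%). Among the other pathway genes in CAFs, Vegfd, a relative of Vegfc, was at 121.5 against 20.5 CPM (5.93, 5.28 to 6.68), Angpt4 at 49.5 against 12.05 CPM (4.11, 3.502 to 4.83) and Svep1 at 874 against 245 CPM (3.56, 3.44 to 3.69). The PBS libraries differed by 2.87, 0.79 and 0.74 in these 3 genes. They are among 6 of 19 that were higher, and 6 were lower, Sema3a the furthest (0.17, 0.14 to 0.21).

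In macrophages of D-CAN, Nrp1 was at 117 against 39.4 CPM (2.98, 2.57 to 3.46) and Pgf at 16.7 against 81.0 CPM (0.21, 0.16 to 0.26), and Vegfa was at 192 against 165 CPM (1.17, 1.07 to 1.27). Flt1 was also higher (2.15, 1.49 to 3.14), which made 2 of 6 members higher where 16.5% of all genes were, and 1 lower where 6.52% were. With Pdgfrb-TK/PBS as control, Nrp1 was at 0.75 and Pgf at 0.98. In pericytes 0 of 6 members with enough UMIs passed 2-fold, with Flt1 at 276 against 324 CPM (0.85, 0.65 to 1.11) and Angpt2 at 76.0 against 74.0 CPM (1.03, 0.58 to 1.76); 12.1% of all genes were higher there and 12.4% lower. Of 4 members with enough UMIs in neutrophils, Flt1 was higher (16 against 4 UMIs, with an interval that held 1) and Pgf (7 against 17 UMIs) and Nrp1 (8 against 15 UMIs) were lower, where 13.9% and 11.3% of all genes were. In T cells 0 of 3 members passed 2-fold, where 13.0% of all genes were higher and 9.99% lower.

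Genes with the most similar pattern were ranked by Pearson's r of log2(CPM + 1) over the 29 sums, among 17489 genes; the sums share libraries and classes, so r is a description. Kdr was closest to Eva1a (r = 0.961), Shank3, Aplnr, Gata2 and Sncaip. Angpt2 was closest to Esam (r = 0.951) and Emcn, which are gate markers, and to Vsig2, Adgrf5 and Synm, and Angpt1 to Evc2 (r = 0.957), Pygo1, Olfr1033, Gli2 and Cdh11. Vegfa, spread over more classes, was closest to Lif (r = 0.848), Igsf8, Fgd4, Amdhd2 and Rap1gap2, and Pgf to Procr (r = 0.896), Rasal2, 2310022B05Rik, Map3k20 and Pdgfa.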

How the data were processed

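The 4 libraries were made by the authors with the Chromium 3' kit v3.1. The values that the authors deposited are counts, whole UMIs per gene and cell, not normalized, for cells already separated from empty droplets. Reads were aligned to mm10 with Cell Ranger; the methods name version 3.1.0 and Ensembl 93, the matrix header names version 7.0.0, and the submitters' processing notes name STAR 2.6. Whether intronic reads were counted is not given in the sources used here.

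From the counts, cells with at least 200 genes were gated by fixed marker lists (at least 3 markers and 10 marker UMIs per 10000, at least 4-fold above a second class); the thresholds were set on the marker distributions after the files were seen. Cells past the pericyte and CAF gates alone were exempt from the 4-fold rule. Setting aside the other cells that failed this rule was the only treatment of doublets. Classes with under 10 cells in a library were left out (T cells of Pdgfrb-TK/PBS, pericytes of Pdgfrb-TK/GCV, B cells of WT/PBS). Dendritic, acinar and mesothelial cells were gated but entered no class comparison. Class contrasts used edgeR 4.0.16 in R 4.3.3 (TMM, filterByExpr, quasi-likelihood, 18 residual degrees of freedom), with DESeq2 1.42.0 as an alternative. CPM have exact Poisson intervals, ratios exact conditional binomial intervals and shares exact Clopper-Pearson intervals at 95%; a count of 0 was set to 3 counts when deciding whether a ratio passed 2-fold. The scripts were tested on simulated data. Fold changes of lists on the log2 scale add 1 CPM.

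The named genes are the 10 members, 19 further pathway genes and 10 hypoxia genes with a result to give, and the 5 nearest genes of Vegfa, Kdr, Angpt1, Angpt2 and Pgf. The members and lists were chosen with earlier results of these data known. Sequences come from RefSeq; 8 of the 10 genes matched a promoter entry, and Angpt1 and Angpt2 did not.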

Additional observations from a re-analysis of the deposited data

Results flagged for a closer look

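Pgf in tumor cells had a CPM ratio of 2.35 for GCV against PBS in Pdgfrb-TK hosts and of 0.30 for D-CAN against PBS in wild-type hosts, and Nrp1 in macrophages had ratios of 0.41 and 2.98. Each was singled out because both treatments passed 2-fold, on opposite sides of 1, with counting intervals that exclude 1. Nrp1 and Vegfa in CAFs also lay on opposite sides of 1 but did not pass 2-fold under both treatments. The difference between the treatments was not tested, since each condition is 1 library. The PBS libraries themselves differed in the same genes, by 0.23 for Pgf in tumor cells and by 3.99 for Nrp1 in macrophages (Pdgfrb-TK/PBS over WT/PBS).

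Features for the reporters GFP and Tdtomato, which no comparison used, held 1284 UMIs in the D-CAN library and 3856 in the WT/PBS library. The matrices of the Pdgfrb-TK libraries do not list these features, so no level can be given there.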

How the results depend on the processing

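Over the class contrasts, 119 of 140 counts of members called were within 1.5-fold of the count reported, and 21 were not. Members lower in ECs numbered 2 without B and T cells (1 reported). Members higher in tumor cells numbered 5 with no filter on low counts (3 reported), and members lower there 4 with DESeq2 and 5 without B and T cells (1 reported). Members lower in CAFs numbered 1 with DESeq2 and 2 without B and T cells (0 reported), and in pericytes 1 with DESeq2, 1 with no filter and 1 without B and T cells (0 reported). Members higher in macrophages numbered 1 with library totals, with no library block, with at least 30 cells per sum, without B and T cells and with mixed cells kept (3 reported), and 1 to 3 when each library was left out in turn (1 without D-CAN and 1 without Pdgfrb-TK/PBS). Members lower in macrophages numbered 5 with DESeq2 and 5 without B and T cells (2 reported), and 1 to 2 with libraries left out. The cause was not tested, except that the fit without B and T cells has fewer classes in the mean.

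For the treatments, counts are members past 2-fold summed over tumor cells, ECs, CAFs and macrophages. With the control taken from the other host strain, GCV gave 3 higher and 9 lower (5 and 5 reported), and D-CAN 3 lower (6 reported). With mixed cells kept, D-CAN gave 3 higher and 11 lower (5 and 6 reported). With the control of the other host strain, 16 of 33 single ratios under GCV and 12 of 32 under D-CAN crossed 1. Of these, 4 had been past 2-fold: Pgf in tumor cells to 0.54 under GCV and 1.33 under D-CAN, and Nrp1 in macrophages to 1.64 under GCV and 0.75 under D-CAN. Another 4 under GCV (Kdr in ECs to 1.47, Flt1 in ECs to 1.02, and Vegfa to 0.87 in CAFs and 0.94 in macrophages) and 7 under D-CAN (Nrp1 in ECs to 0.52, Angpt2 in tumor cells to 1.40, and in CAFs Vegfa to 1.10, Vegfb to 0.98, Vegfc to 1.12, Angpt2 to 2.08 and Tek to 1.94) had counting intervals that excluded 1. Over the other alternatives, 13 of 273 values under GCV and 13 of 294 under D-CAN crossed 1; the reported interval excluded 1 for 2 of these, Vegfa in tumor cells of D-CAN at 0.94 as a mean over cells and 0.92 with TMM. All 24 alternatives for the sources of ligands and all 6 for the hypoxia tertiles left the result within its spread. Shares of cells depend on thinning: at 1000 UMIs per cell in place of 2000, Vegfa was found in 14.0% of neutrophils (20.3%) and Kdr in 38.8% of ECs (55.1%), as means over libraries. No paired analysis of the treatments was possible because each condition is 1 library and the labels give no replicate numbers. Depth limits the classes with few cells: pericytes numbered 28 to 103 and ECs 46 to 349 in the libraries used, and neutrophils had median depths of 1053 to 2052 UMIs.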
